A study of Mus musculus with 20 samples.

Results

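The transcription factor ATF4 and 9 genes of its program were followed in mouse heart: Atf4, Atf5, Ddit3, Trib3, Ppp1r15a, Eif4ebp1, Asns, Chac1, Sesn2 and Fgf21. These 10 genes were chosen by name, from what is known of the pathway, when earlier results of these data were already known. All 10 were found among the 25851 genes of the deposited table. Heart RNA had been sequenced from 20 male mice aged 14 to 16 weeks. Their genotype label was wild type or cardiomyocyte knockout of PGC-1α (here the labelled knockouts), and 5 of each kind stayed sedentary while 5 had 6 weeks of voluntary wheel running. The labels name no other allele or agent, no promoter for the deletion and no deleted exon. PGC-1α, encoded by Ppargc1a, is a transcriptional coactivator of mitochondrial biogenesis. Each library was made from a piece of heart tissue, without a label for the part of the heart, so RNA of all its cell types was measured together.

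The integrated stress response begins when a kinase phosphorylates the translation factor eIF2 on its alpha subunit. General protein synthesis then slows, while the mRNA of ATF4 is translated better, so that much of the control of ATF4 acts on its protein and is not read by its RNA. ATF4 binds DNA with other basic leucine zipper factors at C/EBP-ATF elements and raises genes for amino acid supply, redox balance and the shutdown of the response. In heart and skeletal muscle a defect of mitochondria is a known trigger of the program, and FGF21 and GDF15 are hormones that it releases.

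The C/EBP-ATF element was looked for in the members' promoters, since it is the sequence through which ATF4 reaches its targets. It was written TGATGNAA and searched on both strands of RefSeq windows on GRCm38.p6, from 250 bases before to 50 bases after each gene's start. A window was found for 9 of the 10 genes, all but Eif4ebp1, and 4 of these 9 genes held the element. Of all 27025 genes with a window, 1219 (4.51%) held it. The stretches around it are given 5′ to 3′ on the strand of the gene, with the element in capitals, on Chac1 at chr2:119351008-119351097 (plus strand), Trib3 at chr2:152344028-152344057 (minus), Asns at chr6:7693214-7693243 (minus) and Fgf21 at chr7:45615581-45615670 (minus).
Chac1: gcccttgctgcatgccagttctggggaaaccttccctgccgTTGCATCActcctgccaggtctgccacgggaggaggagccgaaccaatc
Trib3: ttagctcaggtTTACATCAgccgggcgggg
Asns: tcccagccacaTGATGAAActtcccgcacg
Fgf21: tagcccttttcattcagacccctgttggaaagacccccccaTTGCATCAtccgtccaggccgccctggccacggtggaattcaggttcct
The element began 193 bases before the RefSeq start of Chac1, 139 before that of Fgf21 and 23 before that of Asns, and 15 bases after that of Trib3. The gene spans printed below are those of GENCODE and can start elsewhere. The Asns stretch lies inside its gene span, and most of the Trib3 stretch lies upstream of its own. In Asns it ran on the strand of the gene, and in the other 3 on the opposite strand. A match is a description of the letters and no evidence of binding.

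Depth was 14.2 to 30.4 M recovered reads per library. Ppargc1a itself, the targeted gene, was at 12.3 ± 2.85 FPKM (reads per exon length and depth, mean ± SD, n = 5) in sedentary wild-type hearts and at 22.9 ± 4.41 in sedentary labelled knockouts. In trained hearts it was at 15.8 ± 4.86 and 22.6 ± 3.01. So it was higher under the knockout label at both activity levels (limma log2 differences 0.88, adjusted p = 0.00471, and 0.55, adjusted p = 0.0387), and since the deleted part is not stated, these gene totals do not check the label. Some libraries stood apart. Arntl, a core clock gene, was above 2 FPKM in wild-type sedentary replicates 1 to 4 and labelled knockout sedentary replicate 1, and at most 1.16 FPKM in the other 15. Myl7, an atrial myosin light chain, exceeded 1000 FPKM in wild-type trained replicates 4 and 5 and labelled knockout trained replicates 2 and 5, and was at most 97.1 FPKM in the other 16.

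Cell type markers also differed between groups. The summed level of 9 of 9 ventricular cardiomyocyte markers was 18710 to 23604 FPKM in sedentary wild-type and 19080 to 22439 in sedentary labelled knockout hearts, 16367 to 21133 in trained wild-type and 13732 to 15777 in trained labelled knockout hearts. In the same order the 7 of 7 fibroblast markers summed to 130 to 154, 150 to 197, 121 to 201 and 286 to 480 FPKM. The 7 of 7 macrophage markers gave 134 to 195, 218 to 240, 139 to 253 and 290 to 525 FPKM. The 6 of 6 smooth muscle and pericyte markers gave 193 to 273, 448 to 507, 230 to 324 and 579 to 657 FPKM. None of the markers in these 4 lists was at 0 in any library. The 7 of 7 atrial markers summed to 46.1 to 261, 278 to 916, 35.4 to 9515 and 1494 to 5706 FPKM, with Myl7 at 0 in 1 library, Bmp10 in 4 and Sln in 7. Trained labelled knockout hearts thus stood apart from the other groups in the first 3 sums, and labelled knockout hearts from wild-type hearts in the smooth muscle and pericyte sum at both activity levels and in the atrial sum when sedentary. These last 2 sums were raised largely by 1 gene each. Acta2 had means of 82.6 and 142 FPKM in sedentary and trained wild-type hearts, and 378 and 482 in labelled knockouts. Nppa was at 53.2 and 510 FPKM in sedentary wild-type and labelled knockout hearts. Between sedentary hearts 1 of 5 tested smooth muscle and pericyte markers was called higher by limma and 1 lower. Between trained hearts 1 was higher and 0 lower. Of 7 atrial markers 0 were called between sedentary hearts. The 7 of 7 endothelial markers summed to 265 to 364 FPKM in trained wild-type and 202 to 258 in trained labelled knockout hearts. Between trained hearts 4 of these 7 were called lower and 0 higher, and between sedentary hearts the sums overlapped. Adipocyte sums reached 422 and 400 FPKM in trained wild-type and labelled knockout hearts, and at most 26.0 and 14.6 in sedentary ones. Epicardial, erythroid and skeletal muscle lists are not printed. The part of these differences in the results was not tested. In bulk tissue, fewer cells of a type and less RNA per cell cannot be told apart.

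Levels spanned a wide range among the members. Over the 20 libraries the mean level, per length of exon, was 38.4 FPKM for Atf4, 31.8 for Eif4ebp1, 31.3 for Atf5, 11.9 for Ddit3, 9.96 for Ppp1r15a, 4.83 for Chac1, 2.33 for Trib3, 2.07 for Sesn2 and 1.56 for Asns. Fgf21, at 0.0822 FPKM, failed the filter of a mean of at least 0.5 FPKM, so 9 of the 10 genes entered the test. The lowest recovered read count of any of the 9 in a library was 32 (Asns), and the highest was 2801 (Atf4). Chac1 varied most between libraries, 6.03 times from lowest to highest, followed by Asns at 5.19 times. Atf4 varied least, at 1.80 times.

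**Figure D1:**
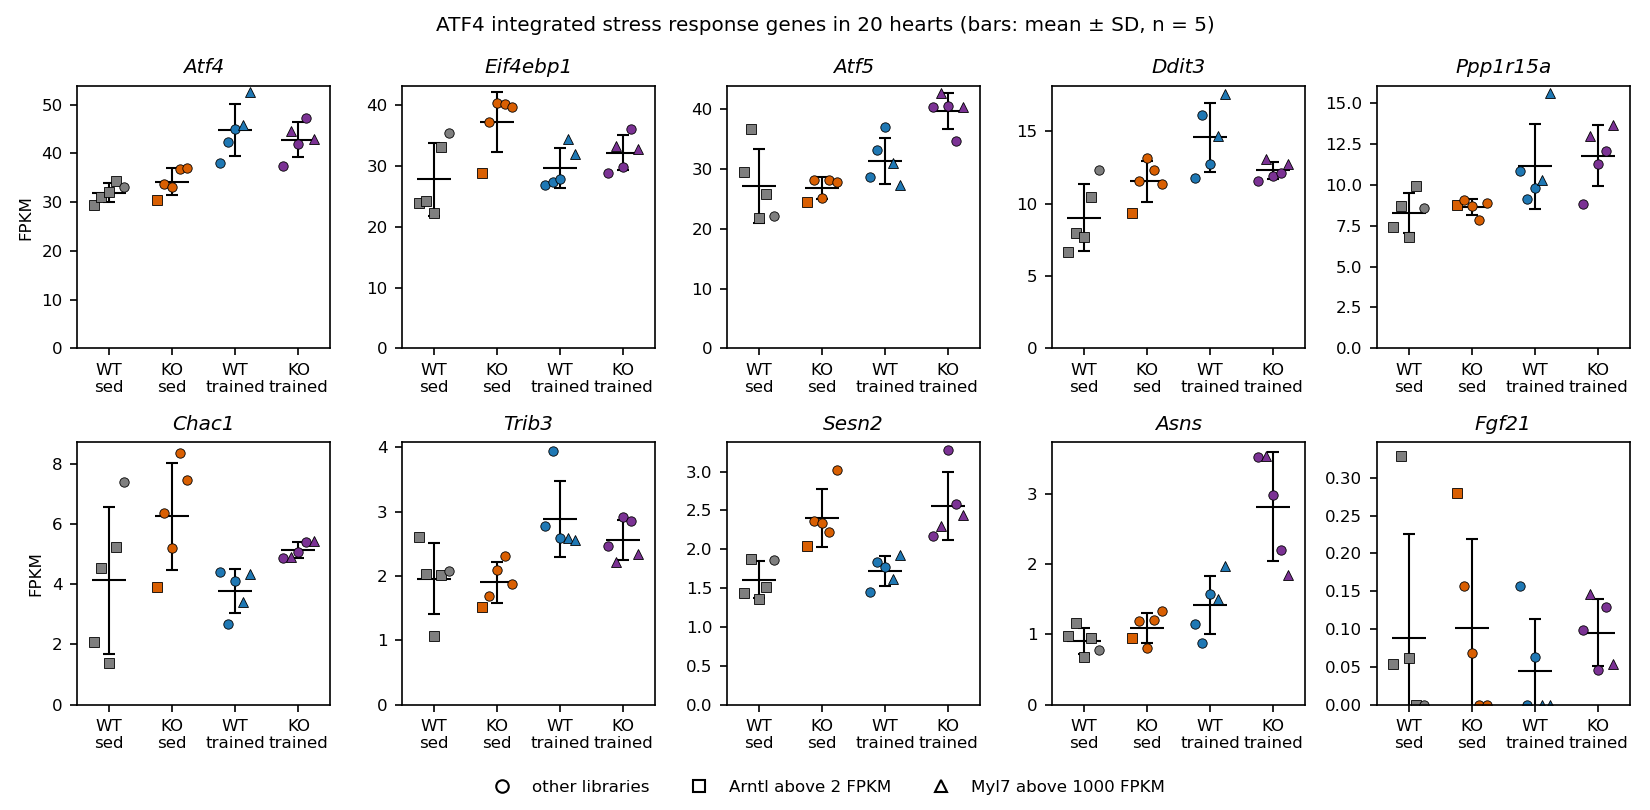
FPKM of the 10 genes (vertical axes) in each of the 20 hearts by group (horizontal axes). Points are libraries, bars are group means ± SD (n = 5), squares are libraries with Arntl above 2 FPKM and triangles those with Myl7 above 1000 FPKM. Asns reached 1.84 to 3.54 FPKM in trained labelled knockouts and Sesn2 2.04 FPKM or more in every labelled knockout heart.

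Genotype labels were compared at each activity level, and activity levels within each genotype label, by limma on log2(FPKM + 0.5). This scale understates the change of low genes, and changes printed as times were taken from it and are no ratios of FPKM. The p-values were adjusted by Benjamini-Hochberg over 13723 genes, with a threshold of 0.05. Between sedentary hearts 2 of the 9 members were higher in labelled knockouts and none was lower, where 13.3% of all genes passed in either direction, 6.96% higher and 6.32% lower. With training in wild-type mice 2 members rose and none fell, against 5.47% of all genes called, 2.94% higher and 2.53% lower. With training in labelled knockouts 4 rose and none fell, against 28.4% of all genes called, 12.1% higher and 16.3% lower. Between trained hearts 3 were higher in labelled knockouts and none lower, where 27.9% of all genes passed, 12.5% higher and 15.4% lower. The training comparisons share their sedentary libraries with the sedentary genotype comparison, so these counts are not independent.

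The median log2 difference of the 9 members was 0.18 for genotype in sedentary mice, against -0.01 over all genes tested. For training in wild-type mice it was 0.39 against -0.01, and for training in labelled knockouts 0.32 against -0.02. For genotype in trained mice it was 0.12 against -0.01. In all 4 comparisons more members had a positive than a negative difference: 8, 9, 7 and 6 of 9 in that order, where 48.6, 47.8, 46.7 and 49.2% of all genes were positive. Scaling each library to 1 common sum (TPM scaling) moved the median of all genes to 0.07, 0.05, 0.21 and 0.24. Under it the calls over all genes, 1656 higher and 2236 lower with training in labelled knockouts and 1713 and 2112 between trained hearts, became 4052 and 630, and 5128 and 789. Between sedentary hearts 955 and 867 became 1061 and 393, and with training in wild-type mice 403 and 347 became 186 and 54. No member was called lower under either scaling.

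**Figure D2:**
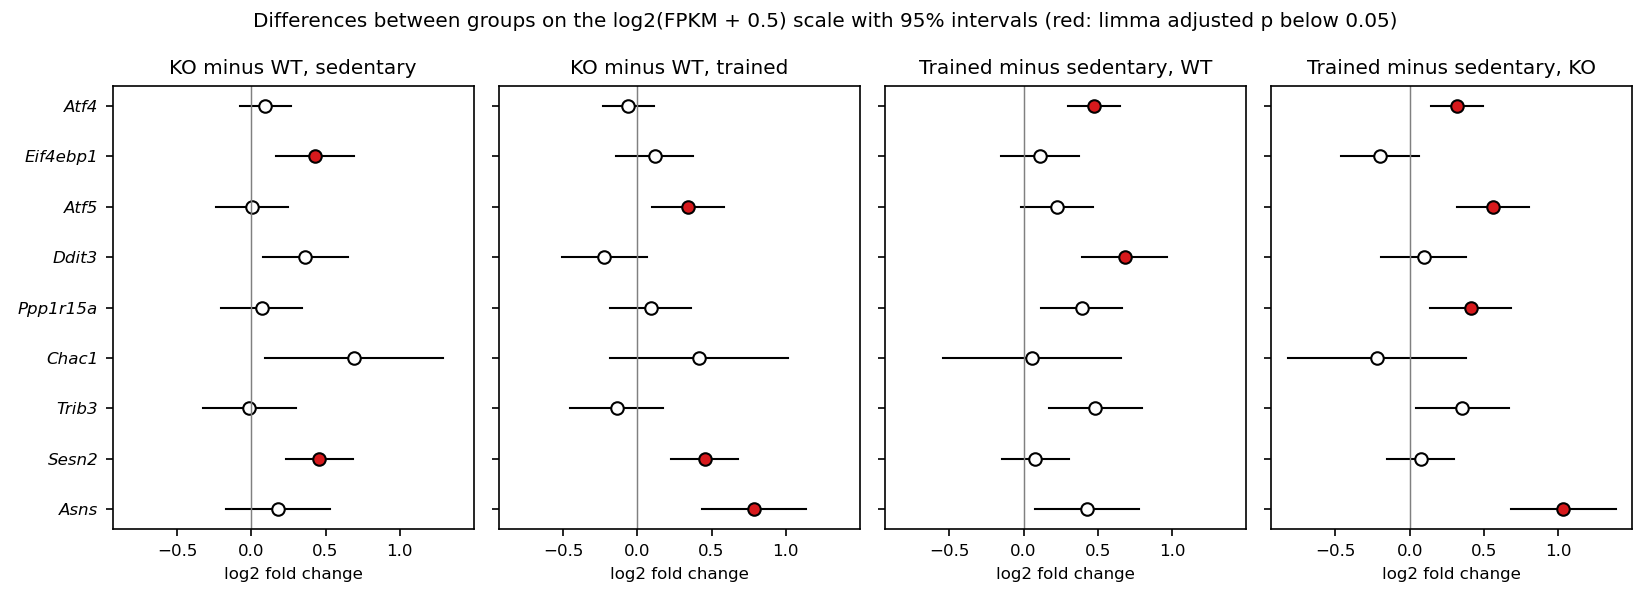
Log2 differences of the 9 tested genes with 95% limma intervals (horizontal axis, on the log2(FPKM + 0.5) scale) in 4 comparisons, red where the limma adjusted p is below 0.05. The 11 red points, 2, 3, 2 and 4 from left to right, all lie above 0.

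Atf4 encodes the transcription factor itself, and lies at chr15:80255184-80257541 on the plus strand of GRCm38. Its levels were 29.3, 31.0, 32.1, 34.4 and 33.0 FPKM in sedentary wild-type hearts and 38.0, 42.3, 45.0, 45.8 and 52.6 in trained ones. Sedentary labelled knockouts had 30.4, 33.6, 33.1, 36.9 and 37.1 FPKM, and trained ones 37.4, 44.5, 41.9, 47.2 and 43.0. Every trained heart was above every sedentary heart of its genotype label. The log2 change with training was 0.47 ± 0.08 (SE) in wild-type mice (limma adjusted p = 0.00511) and 0.32 ± 0.08 in labelled knockouts (adjusted p = 0.00683), or 1.39 and 1.25 times. The exact two-sided permutation p was 0.00794 in each, the smallest that 5 against 5 allows. Groups separated upwards in this way for 2.24% of all genes with training in wild-type mice and 8.96% in labelled knockouts. By genotype Atf4 differed by 0.10 in sedentary hearts (95% interval -0.08 to 0.27, limma adjusted p = 0.459) and by -0.06 in trained hearts (-0.23 to 0.11, adjusted p = 0.640). The last value turned to 0.23 under TPM scaling (limma adjusted p = 0.129).

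With training in wild-type mice the Atf4 change was still called with log2 Myl7 in the fit, where 459 of all genes and 3 members passed. Without the high-Myl7 libraries 39 of all genes passed, and with log2 Arntl in the fit 73. In these fits and without the high-Arntl libraries the Atf4 change kept its direction, at 0.38 to 0.42, but not its call. Without the 4 libraries with high Myl7 it was 0.38 (limma adjusted p = 0.0929). With log2 Arntl in the fit it was 0.39 (adjusted p = 0.0698 by limma), and leaving out the 5 high-Arntl libraries, after which a single sedentary wild-type heart remains, gave 0.42 (adjusted p = 0.343 by limma). In labelled knockouts the training change of Atf4 was called in all 32 alternatives run, between 0.27 and 0.59 (limma adjusted p at most 0.0301).

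Atf5, a related leucine zipper factor known for its part in the mitochondrial unfolded protein response, lies at chr7:44812256-44816658 on the minus strand. Its levels were 24.5, 28.3, 25.2, 28.1 and 27.9 FPKM in sedentary and 40.4, 42.8, 40.6, 34.7 and 40.4 in trained labelled knockouts. Wild-type hearts had 29.5, 36.6, 21.7, 25.8 and 22.1 FPKM when sedentary and 28.7, 33.1, 37.0, 31.0 and 27.3 when trained. Trained labelled knockouts were above all sedentary ones, while the wild-type groups overlapped. With training Atf5 rose by a log2 of 0.56 ± 0.12 in labelled knockouts (1.47 times, limma adjusted p = 0.00132, exact permutation p = 0.00794). In wild-type mice the value was 0.23 ± 0.12 (limma adjusted p = 0.219). Between trained hearts Atf5 was higher in labelled knockouts by 0.34 ± 0.12 (adjusted p = 0.0349 by limma, exact permutation p = 0.0159), with 4 of 5 above all trained wild-type hearts. This last call was lost without the filter on low values (0.34, limma adjusted p = 0.0532), without the high-Myl7 libraries (0.23, adjusted p = 0.332) and without any 1 of 7 libraries: wild-type trained replicates 1, 4 or 5, or labelled knockout trained replicates 1, 2, 3 or 5 (limma adjusted p 0.0575 to 0.0859). The training change in labelled knockouts was called in all 32 alternatives run. Exons of Atf5 share 82 bases (4.11% of its length) with Nup62 on the other strand, at 10.4 FPKM, and the strand setting of the counting is not given in the sources used here.

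Ddit3 encodes CHOP, a C/EBP-related factor that pairs with ATF4 and is linked to cell death under prolonged stress, and lies at chr10:127290774-127296288 on the plus strand. Levels were 6.63, 7.95, 7.70, 10.5 and 12.3 FPKM in sedentary and 11.8, 16.1, 12.7, 14.7 and 17.6 in trained wild-type hearts. Labelled knockouts had 9.33, 11.6, 13.2, 12.3 and 11.4 FPKM when sedentary and 11.6, 13.1, 11.9, 12.1 and 12.7 when trained. Of the trained wild-type hearts 4 of 5 exceeded all sedentary ones, and the labelled knockout groups overlapped. Ddit3 rose with training in wild-type mice by a log2 of 0.68 ± 0.14 (1.61 times, limma adjusted p = 0.0126, exact permutation p = 0.0159). In labelled knockouts the value was 0.09 ± 0.14 (limma adjusted p = 0.652). The difference between these 2 training changes was -0.59 (95% interval -0.99 to -0.18), with an unadjusted limma p of 0.00678 and an adjusted p of 0.0696. It passed without any 1 of wild-type sedentary replicates 4 or 5, labelled knockout sedentary replicate 1 or wild-type trained replicate 1 (limma adjusted p 0.0171 to 0.0444).

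The rise of Ddit3 in wild-type mice was smaller when Arntl was taken into account. Sedentary wild-type replicate 5, the one heart of its group with low Arntl, had the highest Ddit3 at 12.3 FPKM, and the 4 with high Arntl had 6.63 to 10.5. With log2 Arntl in the fit the training change was 0.38 (limma adjusted p = 0.138), and without the high-Arntl libraries 0.22 (adjusted p = 0.673 by limma). Without the high-Myl7 libraries it was 0.58 (adjusted p = 0.143 by limma). The rise was still called with log2 Myl7 in the fit. Exons of Ddit3 share 68 bases (3.97%) with Mars on the other strand, at 16.2 FPKM, and 105 bases (6.13%) with another model of the same name.

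Trib3 encodes a pseudokinase that is induced by ATF4 and CHOP and holds back both, and lies at chr2:152337422-152344032 on the minus strand. It was at 1.96 ± 0.556 FPKM in sedentary and 2.89 ± 0.590 in trained wild-type hearts, and at 1.90 ± 0.317 and 2.56 ± 0.313 in the labelled knockouts. The log2 change with training was 0.48 (95% interval 0.17 to 0.80, limma adjusted p = 0.0638) in wild-type mice and 0.35 (0.04 to 0.67, adjusted p = 0.0856) in labelled knockouts, so neither passed over all genes. With log2 Myl7 in the fit both passed, at 0.56 and 0.43 (limma adjusted p = 0.0420 and 0.0299). The first also passed without wild-type trained replicate 1 (0.49, limma adjusted p = 0.0465), and the second without wild-type sedentary replicate 3 (0.35, adjusted p = 0.0271) and under TPM scaling (0.58, adjusted p = 0.0107). Exact permutation gave p = 0.0317 and p = 0.0159 for Trib3 alone. The ranges overlapped in each pair. In wild-type trained replicate 2 it stood at 3.93 FPKM, while the other 4 trained wild-type hearts had 2.56 to 2.77.

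Ppp1r15a encodes GADD34, the regulatory subunit that brings a phosphatase to eIF2 and ends the response, and lies at chr7:45522916-45526268 on the minus strand. Sedentary labelled knockouts had 8.74, 9.08, 8.71, 7.83 and 8.92 FPKM, and trained ones 8.86, 13.0, 11.3, 12.1 and 13.7. In wild-type hearts it was at 7.40, 8.68, 6.80, 9.93 and 8.55 FPKM when sedentary and 10.8, 9.12, 9.78, 10.3 and 15.6 when trained. In labelled knockouts 4 of the 5 trained hearts were above all sedentary ones, and in wild-type mice 3 of 5. The log2 change with training was 0.41 ± 0.13 in labelled knockouts (1.33 times, limma adjusted p = 0.0234, exact permutation p = 0.0238) and 0.39 ± 0.13 in wild-type mice (limma adjusted p = 0.0766, exact permutation p = 0.0238). The call in labelled knockouts was lost without the high-Myl7 libraries (0.29, limma adjusted p = 0.0799) and without any 1 of sedentary replicate 4 or trained replicates 2, 4 or 5 (adjusted p 0.0507 to 0.0598 by limma). Both high-Myl7 hearts of that group were its highest, at 13.0 and 13.7 FPKM.

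Eif4ebp1 encodes 4E-BP1, which binds the cap-binding factor eIF4E and slows translation, and lies at chr8:27260329-27276674 on the plus strand. Its levels were 23.9, 24.2, 22.4, 33.1 and 35.5 FPKM in wild-type and 28.8, 37.3, 40.3, 40.2 and 39.8 in labelled knockout sedentary hearts. Of the labelled knockouts 4 of 5 were above all wild-type hearts, and replicate 1, with high Arntl, was not. The log2 difference was 0.43 ± 0.13 (1.35 times, limma adjusted p = 0.0281, exact permutation p = 0.0556). It fell short without any 1 of 7 libraries: wild-type sedentary replicates 1, 2 or 3, or labelled knockout sedentary replicates 2, 3, 4 or 5 (limma adjusted p 0.0557 to 0.0902). With log2 Arntl in the fit it was 0.15 (limma adjusted p = 0.535), and without the high-Arntl libraries also 0.15 (adjusted p = 0.854 by limma). Trained hearts had 29.7 ± 3.33 FPKM in wild-type mice and 32.2 ± 2.91 in labelled knockouts (log2 difference 0.12, 95% interval -0.15 to 0.38, limma adjusted p = 0.541). Under TPM scaling the trained difference was 0.40 (adjusted p = 0.0385 by limma), where the median of all genes was 0.24.

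Asns encodes asparagine synthetase, a classical ATF4 target whose promoter element is printed above, and lies at chr6:7675169-7693254 on the minus strand. Its levels were 3.52, 3.54, 2.98, 2.20 and 1.84 FPKM in trained and 0.944, 1.18, 0.803, 1.2 and 1.33 in sedentary labelled knockouts. Wild-type hearts had 1.15, 0.881, 1.58, 1.5 and 1.96 FPKM when trained and 0.968, 1.16, 0.683, 0.940 and 0.774 when sedentary. The trained labelled knockouts were above all sedentary hearts, and 4 of 5 were above all trained wild-type hearts. Asns rose with training in labelled knockouts by a log2 of 1.04 ± 0.17 (2.05 times, limma adjusted p = 1.5e-04, exact permutation p = 0.00794). Between trained hearts it was higher in labelled knockouts by 0.79 ± 0.17 (1.72 times, limma adjusted p = 0.00146, exact permutation p = 0.0159). Both calls held in all 31 alternatives run, with values of 0.85 to 1.35 and 0.65 to 1.03. In wild-type mice the training change was 0.43 ± 0.17 (limma adjusted p = 0.118), with a 95% interval of 0.08 to 0.78.

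The training change of Asns in labelled knockouts exceeded that in wild-type mice by 0.61 (95% interval 0.11 to 1.10), with an unadjusted limma p of 0.0192 and an adjusted p of 0.120. This difference passed without the high-Myl7 libraries (0.82, limma adjusted p = 0.0384) and without labelled knockout trained replicate 5 (0.73, adjusted p = 0.0486 by limma). In sedentary hearts Asns differed by genotype label by 0.18 (-0.17 to 0.53, adjusted p = 0.50 by limma). In the interaction test 0 members passed by limma, 0 by limma voom on recovered reads and 1 (Ddit3) with a replicate block, where 7.32% of all genes passed in the first. At an unadjusted p below 0.05 there were 2 members, Ddit3 and Asns, of opposite sign, and 26.0% of all genes.

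Sesn2 encodes sestrin 2, a stress protein that restrains mTORC1 signalling, and lies at chr4:132492032-132510501 on the minus strand. Its levels were 1.44, 1.87, 1.36, 1.51 and 1.87 FPKM in sedentary wild-type hearts and 2.04, 2.36, 2.34, 2.22 and 3.03 in sedentary labelled knockouts. After training they were 1.45, 1.84, 1.78, 1.61 and 1.93 in wild-type and 2.17, 2.31, 3.28, 2.59 and 2.44 in labelled knockout hearts. All 10 labelled knockout hearts exceeded all 10 wild-type hearts. The share of all genes for which this holds was not taken, and it held too for Gdf15 and Psat1 of the lists below. Labelled knockout hearts also exceeded wild-type hearts in the summed smooth muscle and pericyte markers (448 to 657 against 193 to 324 FPKM), a sum raised mainly by Acta2. The markers of that list did not all rise. Mean Rgs5 was 112 and 101 FPKM in sedentary and trained wild-type hearts, and 80.1 and 83.8 in labelled knockouts. The part of these markers in the Sesn2 difference was not tested. The log2 difference was 0.46 ± 0.11 in sedentary (1.37 times, limma adjusted p = 0.00837) and 0.45 ± 0.11 in trained hearts (1.37 times, adjusted p = 0.00335), with an exact permutation p of 0.00794 in each. Labelled knockouts were above wild-type hearts without overlap for 5.14% of all genes in sedentary and 8.07% in trained mice.

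Training was followed by no called change of Sesn2. The change was 0.08 in wild-type mice (95% interval -0.15 to 0.30) and 0.07 in labelled knockouts (-0.15 to 0.30), with limma adjusted p of 0.658 and 0.648. The genotype difference in trained hearts was called in all 32 alternatives run, between 0.37 and 0.70. In sedentary hearts it was not called with log2 Arntl in the fit (0.37, limma adjusted p = 0.117) nor without the high-Arntl libraries (0.33, adjusted p = 0.648 by limma), which leaves 1 wild-type sedentary heart.

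Chac1 encodes an enzyme that breaks down glutathione, and lies at chr2:119351229-119354381 on the plus strand, with its promoter element printed above. In sedentary hearts it was at 2.08, 4.54, 1.39, 5.25 and 7.40 FPKM in wild-type mice and 3.90, 6.38, 5.21, 8.38 and 7.47 in labelled knockouts. Trained hearts had 4.39, 2.68, 4.10, 3.4 and 4.34 FPKM in wild-type mice and 4.86, 4.92, 5.08, 5.39 and 5.42 in labelled knockouts. The trained groups did not overlap, and the sedentary wild-type hearts spread over more than the range of both. Exact permutation gave p = 0.00794 for the trained groups. The fit over all genes, which shares 1 spread between the groups, gave a log2 difference of 0.41 ± 0.29 and a limma adjusted p of 0.314. Chac1 had a coefficient of variation of 59.0% in sedentary wild-type and 5.08% in trained labelled knockout hearts. Without the high-Arntl libraries the trained difference was 0.41 with a limma adjusted p of 0.0266. In sedentary hearts the difference was 0.69 ± 0.29 (limma adjusted p = 0.116), and it turned to -0.12 without the high-Arntl libraries.

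Fgf21 encodes a fasting and stress hormone, and lies at chr7:45613886-45615490 on the minus strand. Its recovered reads came to 7 over the 5 sedentary wild-type hearts, 11 over the sedentary labelled knockouts, 4 over the trained wild-type and 11 over the trained labelled knockout hearts. It had 0 reads in 7 of the 20 libraries. No difference was detectable at this depth: without the filter the limma adjusted p was 0.922 and 0.601 for genotype in sedentary and trained hearts, and 0.760 and 0.995 for training in wild-type mice and labelled knockouts.

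The order of the groups therefore differed from gene to gene. Atf4, Ddit3 and Trib3 had their highest mean in trained wild-type hearts. Atf5, Asns, Sesn2 and Ppp1r15a had theirs in trained labelled knockouts, and Chac1 and Eif4ebp1 theirs in sedentary labelled knockouts. Between neighbours in that order the ranges overlapped in all cases but 3: Atf4 from sedentary to trained labelled knockouts, Sesn2 from trained wild-type to sedentary labelled knockouts, and Ppp1r15a from sedentary labelled knockouts to trained wild-type hearts. Among the members only Sesn2 had both labelled knockout groups above both wild-type groups without overlap.

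**Figure D3:**
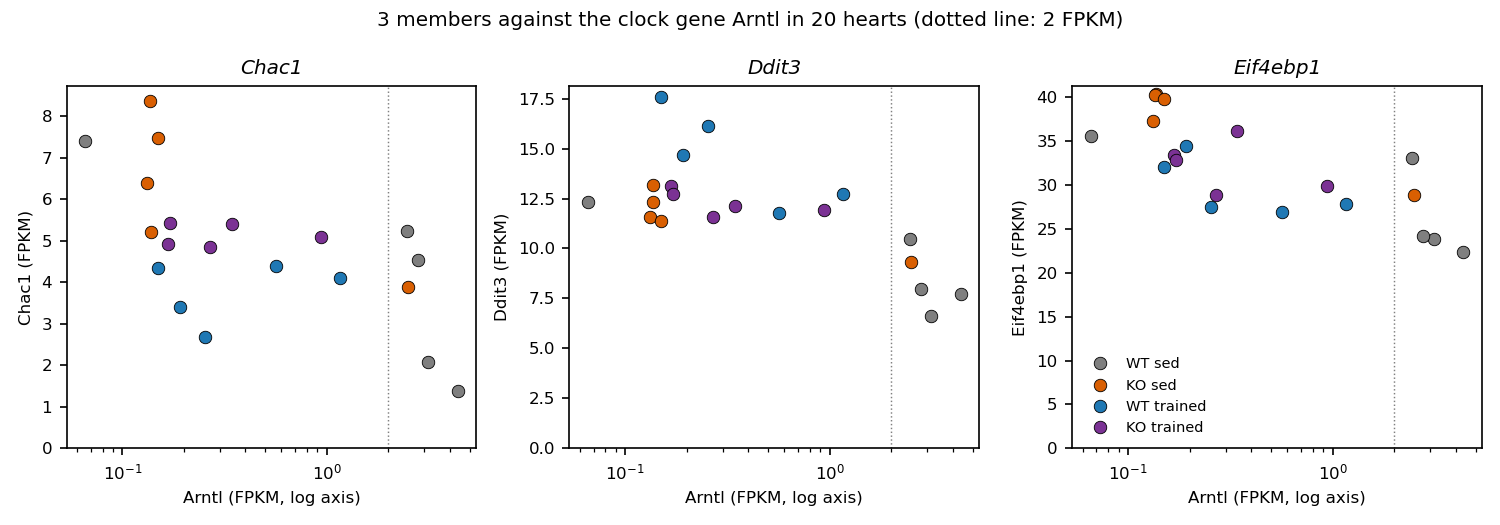
FPKM of Chac1, Ddit3 and Eif4ebp1 (vertical axes) against Arntl (FPKM, log axis) in the 20 hearts, coloured by group, with a dotted line at 2 FPKM. To the right of the line lie 4 of the 5 sedentary wild-type hearts and 1 sedentary labelled knockout heart, with Ddit3 between 6.63 and 10.5 FPKM.

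Chac1, Ddit3 and Eif4ebp1 moved with Arntl inside the sedentary groups. The 4 sedentary wild-type hearts with high Arntl had 1.39 to 5.25 FPKM of Chac1 and 22.4 to 33.1 of Eif4ebp1, against 7.40 and 35.5 in replicate 5. Sedentary labelled knockout replicate 1, the one with high Arntl, was the lowest of its group in Atf4, Atf5, Ddit3, Trib3, Chac1, Sesn2 and Eif4ebp1. This is 1 library, and for how many of all genes it was the lowest was not counted. Its Chac1 was 3.90 FPKM against 5.21 to 8.38 in the other 4, and its Eif4ebp1 28.8 against 37.3 to 40.3. With log2 Arntl in the limma fit 0 members passed between sedentary hearts (1 at an unadjusted p below 0.05) and 0 with training in wild-type mice (2 at that p). Without the high-Arntl libraries 0 passed in either (0 and 3 at that p). In those 2 fits 594 and 19 of all genes passed between sedentary hearts, and 73 and 4 with training in wild-type mice, where the full fit had 1822 and 750. The share of all genes at an unadjusted p below 0.05 was not taken in the 2 Arntl fits. The labels give no time of day for tissue collection, and its part in these results was not tested.

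Around the members 6 lists with 88 tested genes were followed. Between sedentary hearts 17.0% of these 88 were called by limma, against 13.3% of all genes. Between trained hearts it was 28.4% against 27.9%. With training it was 18.2% against 5.47% in wild-type mice and 39.8% against 28.4% in labelled knockouts. In wild-type mice 8 of the 16 calls lay in the list of 10 leucine zipper partners and regulators of ATF4. Without the high-Myl7 libraries 2 genes of that list and none of the other lists were called there, and 39 of all genes. Upstream of ATF4, 17 genes of the eIF2 kinases, eIF2, its exchange factor eIF2B and the mitochondrial relay were tested. With training in labelled knockouts 4 rose and 6 fell (median -0.15), and with training in wild-type mice 1 rose and 1 fell (median -0.05). Between trained hearts 1 was higher and 3 lower in labelled knockouts, and between sedentary hearts 1 higher and 2 lower. Under TPM scaling the balance of this list turned to 7 higher and 2 lower with training in labelled knockouts (median 0.11) and to 8 higher and 2 lower between trained hearts (median 0.27), and was 1 higher and 0 lower in each of the other 2 comparisons, so its direction rests on the scaling. Oma1 and Dele1 make up the relay: OMA1 is a protease of the inner mitochondrial membrane that cleaves DELE1, which then activates the kinase HRI. Oma1 was at 15.4 ± 1.02 FPKM in sedentary and 14.5 ± 1.51 in trained wild-type hearts, and at 12.5 ± 1.04 and 8.32 ± 0.422 in the labelled knockouts. Its log2 difference in labelled knockouts was -0.30 when sedentary (limma adjusted p = 0.0129) and -0.76 when trained (adjusted p = 3.8e-07). Dele1 differed by -0.34 (limma adjusted p = 0.0163) and -0.78 (adjusted p = 2.4e-06) in the same comparisons. Between sedentary hearts neither gene was called lower under TPM scaling. Nor was either called lower there without the high-Arntl libraries, which leaves 1 sedentary wild-type heart.

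In labelled knockouts both relay genes fell with training, Oma1 by 0.55 and Dele1 by 0.66 on the log2 scale (limma adjusted p = 3.2e-05 and 3.6e-05). These training changes differed from those in wild-type mice by -0.46 for Oma1 (limma adjusted p = 0.0154) and -0.44 for Dele1 (adjusted p = 0.0427). Neither difference passed under TPM scaling, at -0.28 (limma adjusted p = 0.133) and -0.25 (adjusted p = 0.158), or without the high-Arntl libraries (-0.41 and -0.42, adjusted p = 0.480 and 0.587 by limma). Eif2ak3, the kinase PERK of the endoplasmic reticulum, and Eif2ak4, the amino acid sensor GCN2, rose with training in labelled knockouts by 0.36 (limma adjusted p = 0.00628) and 0.32 (adjusted p = 0.0430). The eIF2B subunits Eif2b1, Eif2b3, Eif2b4 and Eif2b5 were lower after training there by 0.22 to 0.33 on the log2 scale, but none of the 4 was called under TPM scaling, where Eif2b5 turned positive, and Eif2b3 and Eif2b5 were not called without the high-Myl7 libraries (limma adjusted p = 0.0514 and 0.0682).

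The list of leucine zipper partners and regulators of ATF4 had the most calls of the 6 lists with training in wild-type mice. It holds 9 leucine zipper factors and Nupr1, a small stress protein that is none. Of the 10 tested genes 8 rose, Nupr1 among them, with training in wild-type mice (median 0.94) and 5 in labelled knockouts (median 0.43), and none fell in any comparison. Atf3, an early stress factor, was at 2.93 ± 0.880 FPKM in sedentary and 16.1 ± 9.95 in trained wild-type hearts. In labelled knockouts it was at 3.4 ± 1.81 and 14.8 ± 8.10. Its log2 change was 2.15 (limma adjusted p = 0.00420) and 1.90 (adjusted p = 6.6e-04). Jdp2 and Maff, which repress or modulate such factors, rose by 1.15 and 1.2 in wild-type mice (limma adjusted p = 0.00187 and 0.00371). Without the high-Myl7 libraries 2 of the 10 were called in wild-type mice, Atf3 and Jdp2, and the median was 0.80. At an unadjusted limma p below 0.05 there were 9, but the share of all genes at that p was not taken. In wild-type mice 5 were called under TPM scaling, and without the high-Arntl libraries 0 were (6 at an unadjusted limma p below 0.05). In labelled knockouts 5 were called without either set of libraries, and 9 under TPM scaling. Between sedentary hearts 4 were higher in labelled knockouts (Nfe2l2, Cebpd, Jdp2 and Cebpb), and 0 without the high-Arntl libraries (1 at an unadjusted limma p below 0.05).

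Amino acid transporters rose in part. Of 10 tested, 4 rose with training in labelled knockouts (Slc36a1, Slc1a4, Slc3a2 and Slc7a5) and 2 in wild-type mice (Slc3a2 and Slc7a5), and none fell in either. Over all genes 12.1% rose in labelled knockouts and 2.94% in wild-type mice. Slc7a5, the light chain of a carrier of large neutral amino acids, was at 1.57 ± 0.323, 2.36 ± 0.400, 2.47 ± 0.604 and 3.78 ± 0.0523 FPKM in sedentary wild-type, sedentary labelled knockout, trained wild-type and trained labelled knockout hearts. It was called higher in all 4 comparisons, at log2 values between 0.46 and 0.59, although the call with training in wild-type mice was lost under TPM scaling. Between trained hearts Slc1a4, a carrier of serine and alanine, was higher in labelled knockouts by 0.71 (limma adjusted p = 0.00216). Without the high-Arntl libraries 0 transporters were called by limma with training in wild-type mice (3 at an unadjusted p below 0.05) and 0 between sedentary hearts (1 at that p). Without the high-Myl7 libraries 0 were called with training in wild-type mice.

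Among 15 tested enzymes of amino acid and redox metabolism, 7 were higher and 3 lower in trained labelled knockouts than in trained wild-type hearts (median 0.40). Over all genes 12.5% were higher and 15.4% lower in that comparison. Psat1, which makes phosphoserine, was higher in labelled knockouts by 1.69 when sedentary (limma adjusted p = 3.6e-07) and 1.40 when trained (adjusted p = 2.6e-07), and had no called change with training. Mthfd2, of mitochondrial folate metabolism, Pycr1, of proline synthesis, and Phgdh, the entry enzyme of serine synthesis, were higher in trained labelled knockouts by 1.26, 0.80 and 1.06. With training in labelled knockouts 5 enzymes of the list rose and 4 fell (median 0.03). Mthfd2, Pycr1 and Phgdh were among those that rose, by 1.04, 0.84 and 1.05, and Got1, Gpt2, Cth and Psph fell by 0.62, 0.66, 0.59 and 0.24 on the log2 scale. Got1, a cytosolic aspartate aminotransferase, went the other way, at -0.55 between sedentary and -1.19 between trained hearts (limma adjusted p = 5.8e-04 and 2.8e-08). The named differences between trained hearts were called without either set of libraries that stood apart.

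The 20 cytosolic aminoacyl-tRNA synthetases, which ATF4 is known to raise in cultured cells, made up no list that rose. With training in labelled knockouts 1 rose and 3 fell, and between trained hearts 1 was higher and 2 lower in labelled knockouts. Under TPM scaling these became 6 higher and 0 lower, and 14 higher and 0 lower, so the direction of this list in trained labelled knockouts rests on the scaling. Of 16 other targets, 1 was higher in labelled knockouts in each genotype comparison, Gdf15. Lower were 2 between sedentary hearts (Trib2 and Vegfa) and 3 between trained hearts (Vegfa, Map1lc3b and Sesn1), and with training in labelled knockouts none rose and 3 fell (Sesn1, Map1lc3b and Herpud1). Under TPM scaling these became 4 higher and 0 lower, 7 and 1, and 4 and 1, so the direction of this list too rests on the scaling. Gdf15, the stress cytokine that the title of the study names, was at 1.36 ± 0.615 and 17.1 ± 4.15 FPKM in sedentary wild-type and labelled knockout hearts and at 1.71 ± 0.902 and 31.4 ± 16.6 in trained ones. Its differences were 3.26 and 3.74 on the log2 scale (limma adjusted p = 1.1e-05 and 2.5e-07). Without the high-Arntl libraries Gdf15 and Psat1 were still called between sedentary hearts, at 3.78 and 1.63 (limma adjusted p = 0.0498 and 0.0276).

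**Figure D4:**
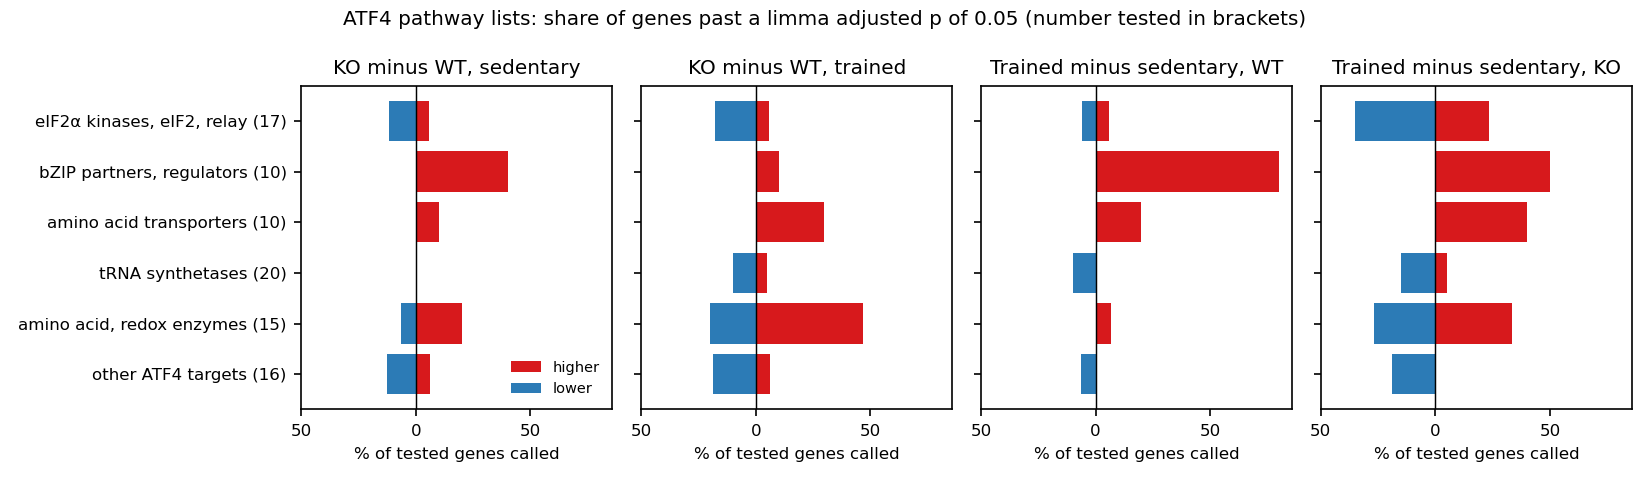
Share of the tested genes of 6 lists (vertical axis, number tested in brackets) called higher (red, to the right) or lower (blue, to the left) in 4 comparisons, in percent. The leucine zipper partners and regulators, Nupr1 included, have 8 of 10 genes called higher with training in wild-type mice, and the amino acid and redox enzymes 7 of 15 higher and 3 lower between trained hearts.

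From mouse to mouse, with group means removed, 28 of the 36 pairs of tested members had a positive correlation over the 20 libraries (median r 0.30). The libraries share tissue handling and scaling, which the values cannot separate from the genes' own relation. Atf4 and Eif4ebp1 had r = 0.67 and rho = 0.72 (permutation within groups, adjusted over the 36 pairs p = 0.0148 and 0.0212). Ddit3 and Eif4ebp1 had r = 0.81 and rho = 0.80 (adjusted permutation p = 0.0322 and 0.0337). For Atf4 and Ddit3 the values were r = 0.61 and rho = 0.56 (adjusted permutation p = 0.0380 and 0.178). Without the 2 libraries farthest from the median of the first gene, r was 0.72, 0.75 and 0.47. Without the 5 high-Arntl libraries it was 0.75, 0.49 and 0.56, and 0 of the 36 pairs passed over those 15 libraries. Asns and Atf5 did not follow these 3 genes, with r between -0.30 and 0.24. Without the high-Myl7 libraries the first 2 pairs stayed called, at r = 0.67 and 0.83 (adjusted permutation p = 0.0299 in each). Atf4 and Ddit3 were then not called (r = 0.51, adjusted permutation p = 0.183). Atf5 and Asns were, at r = 0.72 (adjusted permutation p = 0.0299), against 0.38 over all 20 libraries.

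**Figure D5:**
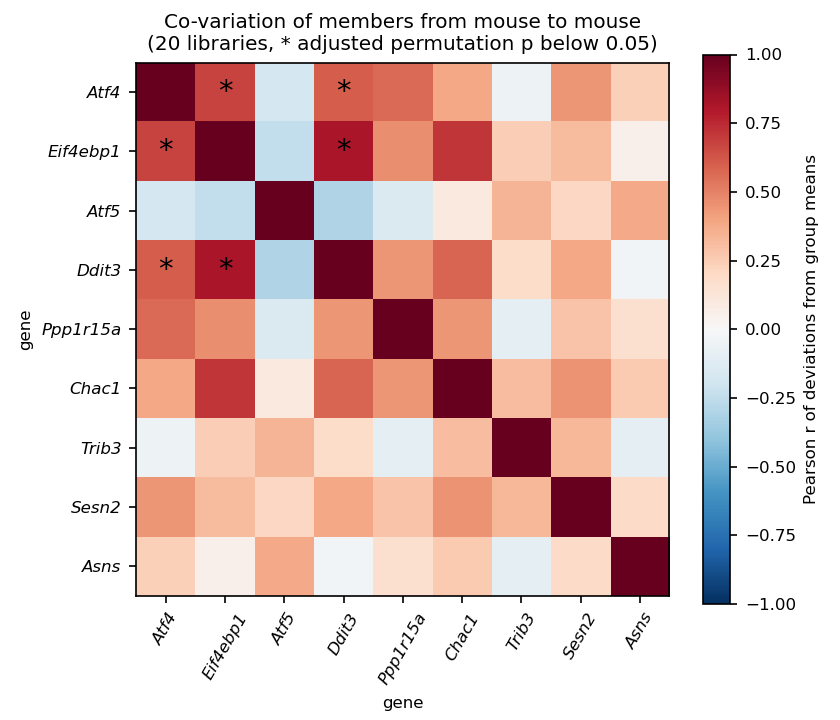
Pearson r of the deviations from group means between the 9 tested genes over 20 libraries (both axes are genes, colour from -1 to 1), with a star where the adjusted permutation p is below 0.05. Atf4, Ddit3 and Eif4ebp1 form the 3 starred pairs.

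The genes whose deviations were most like those of each member were taken from 13722 others, as a description over the same 20 libraries. Highest were Brk1 for Eif4ebp1 (r = 0.95), Adamtsl4 for Ddit3 (0.92), Hes1 for Trib3 (0.90), Pik3ip1 for Chac1 (0.90), H2-Q5 for Atf5 (0.85), Fam193a for Atf4 (0.84), Hoxb4 for Sesn2 (0.84), Asb16 for Ppp1r15a (0.83) and Zcchc9 for Asns (0.72). None of the 3 genes nearest to any member was itself a member. Chac1 also had Sqstm1, an autophagy receptor of the list of other ATF4 targets, among its 3 nearest (r = 0.86).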

How the data were processed

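Poly-A selected, directional libraries of heart RNA were sequenced from 5 mice per group, per the labels' protocols. The authors deposited 1 table of FPKM. The tools named for mm10 (per the submitters' processing notes, which give no roles) are DESeq2 1.20.0, HISAT2 2.0.5 and featureCounts 1.5.0-p3. FPKM times GENCODE M21 exon length gave whole reads within 0.01 in every library for 24971 genes (96.6%), and the values were already scaled between libraries (effective size over median-ratio factor 0.996 to 1.00). No further scaling was made.

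With limma 3.58.1 (R 4.3.3), log2(FPKM + 0.5) was modelled in 1 fit of the 4 groups with 16 residual degrees of freedom and a mean-variance trend. Genes with a mean of at least 0.5 FPKM were tested (13723, with 12128 left out), with Benjamini-Hochberg adjustment over all of them in each of 5 comparisons, the fifth being the training change in labelled knockouts minus that in wild-type mice. A second test of each member was an exact permutation test (two-sided, 252 splits), and their co-variation by 100000 permutations of libraries within groups. Python 3.11.15, pandas 2.3.3 and numpy 2.4.6 prepared the tables. The procedure was tested on simulated data.

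The members, the pathway and marker lists, and the fits around Arntl and Myl7 were chosen with earlier results of these data known. All members are named, with Ppargc1a, Gdf15, up to 3 called genes per pathway list and comparison in order of p (a part is printed, and a few beyond the third were chosen after their values were seen), and the 3 genes nearest to each member. Alternatives were other pseudocounts, filters and scalings, limma voom on recovered reads, the replicate number as a block, Myl7 or Arntl as covariate or their libraries left out, and each library left out. List counts without those libraries and under TPM scaling were added after seeing the data. Counts at an unadjusted p below 0.05 have a share of all genes beside them in the interaction alone, and elsewhere none was taken. All libraries carry 1 batch label. Reads are not independent molecules, so read totals cover counting error only.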

Additional observations from a re-analysis of the deposited data

Results flagged for a closer look

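In 4 of the 40 sets of 5 libraries (10 genes in 4 groups) the highest or lowest library stood far from the rest, with a gap of more than 0.71 of the group's range. Chance gives this in about 1 in 20 groups. Trib3 was at 3.93 FPKM in wild-type trained replicate 2, and Ppp1r15a at 15.6 FPKM in wild-type trained replicate 5. Fgf21 was at 0.328 FPKM in wild-type sedentary replicate 2, and Eif4ebp1 at 28.8 FPKM in labelled knockout sedentary replicate 1. The Ppp1r15a library has high Myl7 and the Eif4ebp1 library has high Arntl, and their part in these values was not tested.

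The training change differed between the genotype labels for 7 genes of the pathway lists, and for none of the 9 tested members, by the limma interaction test. These are 7 of the 88 list genes tested (7.95%), close to the 7.32% of all genes called. It was lower in labelled knockouts for Oma1 (-0.46 on the log2 scale, adjusted p = 0.0154), Dele1 (-0.44, adjusted p = 0.0427), Got1 (-0.64, adjusted p = 0.00825), Sesn1 (-0.65, adjusted p = 0.0315) and Map1lc3b (-0.32, adjusted p = 0.0427). It was higher for Eif2ak3 (0.45, adjusted p = 0.0438) and Pycr1 (0.67, adjusted p = 0.0380). Without the 5 libraries with high Arntl none of the 7 was called, and under TPM scaling Got1 and Pycr1 were. Without the 4 libraries with high Myl7 the calls of Sesn1 and Map1lc3b were lost.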

How the results depend on the processing

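Of single-member results under the alternatives, 1322 kept direction and side of the threshold, 31 lost a call, 22 gained one and 60 turned sign, none of the last being called in the reported fit. Depth limits Fgf21. The cause of the changes listed here was not tested.

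Calls over all genes with training in wild-type mice (750) became 354 without the filter, 240 under TPM scaling, 459 with log2 Myl7 as covariate and 39 without the high-Myl7 libraries, with 0 members called there (4 at an unadjusted limma p below 0.05). With log2 Arntl as covariate they were 73, and without the high-Arntl libraries 4, with 0 members called in each. Between sedentary hearts (1822) they were 594 and 19 in those fits, with 0 members called. Between trained hearts (3825) they were 5917 under TPM scaling. For the interaction (1005) they were 629, 406, 267 and 1 without the filter, under TPM scaling, with Arntl as covariate and without the high-Arntl libraries. The interaction had 1 member called without the high-Myl7 libraries (Asns). The 3 called pairs of members became 0 without the high-Arntl libraries and 1 without the 2 libraries farthest from the median of Atf4. Without the high-Myl7 libraries 3 pairs passed, with Atf5 and Asns in the place of Atf4 and Ddit3.

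Leaving out 1 library gave 1152 to 2805 calls over all genes and 1 to 4 members between sedentary hearts, 127 to 2311 and 2 to 3 with training in wild-type mice, 3112 to 4026 and 3 to 5 with training in labelled knockouts, 3132 to 3935 and 2 to 3 between trained hearts, and 480 to 1698 and 0 to 1 for the interaction. Between sedentary hearts the count moved over 1.5 times without wild-type sedentary replicate 1 (1185) or 3 (1152) or labelled knockout sedentary replicate 1 (2805) or 4 (1157). With training in wild-type mice it did so without wild-type sedentary replicate 1 (190), 2 (379) or 3 (198) or wild-type trained replicate 1 (2311), 2 (235), 4 (127) or 5 (254). For the interaction 12 of 20 libraries did so.

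Among pairs of same-numbered libraries 12 of 30 had r over 0.1 (from -0.28 to 0.48, median 0.07). Among pairs with different numbers 32 of 120 did (from -0.51 to 0.54, median -0.01). Of the 20 libraries, 1 correlated best with its own number in every other group. These values do not show that the numbers pair mice, and a weaker link by number was not tested. With the replicate number as a block 3, 3, 4, 3 and 1 members and 2467, 1664, 4275, 4220 and 1305 genes passed, in the same order of comparisons. The added members were Ddit3 between sedentary hearts (adjusted p = 0.0284) and in the interaction (adjusted p = 0.0276), and Ppp1r15a with training in wild-type mice (adjusted p = 0.0412), all by limma.

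Values that turned sign were, with pseudocount 1, Sesn2 in the interaction (0.001064). Under TPM scaling they were Trib3 between sedentary hearts (0.06021), Chac1 and Eif4ebp1 with training in labelled knockouts (0.02835 and 0.06543), Atf4, Ddit3 and Trib3 between trained hearts (0.228, 0.05697 and 0.1069), and Atf4, Trib3 and Sesn2 in the interaction (0.03514, 0.04668 and 0.1678). Without the high-Myl7 libraries they were Atf4 between trained hearts (0.009909) and Sesn2 in the interaction (0.07172). With Arntl as covariate they were Ppp1r15a between sedentary hearts (-0.01636), Chac1, Sesn2 and Eif4ebp1 with training in wild-type mice (-0.4657, -0.003909 and -0.1616), and Chac1 and Sesn2 in the interaction (0.2248 and 0.07584). Without the high-Arntl libraries they were Ddit3 and Chac1 between sedentary hearts (-0.02845 and -0.1213), Chac1, Sesn2 and Eif4ebp1 with training in wild-type mice (-0.9017, -0.09512 and -0.2601), and Chac1 and Sesn2 in the interaction (0.5351 and 0.1252).

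Without 1 library the value crossed 0 for Atf5 (-0.06702 to 0.1181) and Trib3 (-0.1656 to 0.08097) between sedentary hearts, Chac1 with training in wild-type mice (-0.2219 to 0.2938), Sesn2 with training in labelled knockouts (-0.004548 to 0.1478), and Chac1 (-0.5157 to 8.599e-05), Ppp1r15a (-0.04794 to 0.1408), Sesn2 (-0.08304 to 0.06933) and Trib3 (-0.2213 to 0.02519) in the interaction. Among the calls gained were those for Chac1 between sedentary hearts without wild-type sedentary replicate 5 (0.93, limma adjusted p = 0.0223), for Trib3 in both training comparisons with log2 Myl7 as covariate (0.56 and 0.43, adjusted p = 0.0420 and 0.0299), and for Ddit3 between trained hearts with Arntl as covariate (-0.25, adjusted p = 0.0477). Eif4ebp1 with training in labelled knockouts was called lower without the high-Arntl libraries (-0.29, limma adjusted p = 0.0179).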
